A study of Homo sapiens with 11 samples.

Results

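Ribosome biogenesis genes were followed in LX-2, an established line derived from human hepatic stellate cells (the fibre-forming pericytes of the liver), after exposure to HIV-1 with or without lipoteichoic acid (LTA), a glycolipid of the Gram-positive cell wall. The labels write the line as Lx2. The 50 genes were listed by symbol with results of these samples already known, namely their CPM (counts scaled to library size) with HIV-1+LTA, HIV-1 and PBS compared within each replicate number. All 50 were found among the 35303 gene rows of the count table, and all 50 passed the filter on low counts that left 16117 genes for testing. They fall into 6 roles: 5 genes of RNA polymerase I (Pol I) transcription, 3 of the box C/D snoRNP, 5 of the box H/ACA snoRNP, 4 abundant nucleolar proteins, 18 small subunit factors and 15 large subunit factors.

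The groups were HIV-1+LTA (the HIV-1BaL strain at an MOI, or virus per cell, of 0.1, with LTA at 1 ug per ml), HIV-1 (the same virus dose with no LTA) and PBS (vehicle). Each had 3 RNA-seq libraries of wild-type cells taken at 24 h, 1 from each of 3 batches as the labels name them. LTA without virus was not analysed here, so the LTA comparison holds only for cells with virus. A list of ChIP-seq peaks from HIV-1-treated cells was also used; the ChIP library of PBS-treated cells was not used here. All groups share 1 cell line, and nothing in the labels says that libraries came from separate cultures beyond the batch number, so p-values speak only of library-to-library spread, part or all of which may be technical.

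Ribosomes are assembled in the nucleolus, where Pol I copies the ribosomal DNA into 1 long precursor RNA. Small nucleolar RNPs then guide its methylation (box C/D) and pseudouridylation (box H/ACA), and large sets of helicases, GTPases and scaffold proteins fold and cut it into the small and large subunits. In many cell types these genes are driven together by the transcription factor MYC and follow growth and protein synthesis.

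The libraries held 50.6 to 90.6 M counts, and reads of the 50 genes made up 0.562% to 0.763% of them. The first principal component, with 81.6% of the variance, set the 3 libraries of batch 3 apart from the other 6. With batch means removed, the first component (31.4%) placed HIV-1+LTA replicates 2 and 3 at -24.5 and -28.5, while HIV-1+LTA replicate 1, at -0.377, lay beside HIV-1 and PBS replicate 1 at 0.662 and -0.285. Results are therefore given for each batch. The stellate cell markers COL1A1 (794 to 1430 CPM) and VIM (539 to 3130 CPM) were abundant. LRAT, GFAP and DES, markers of quiescent stellate cells, stayed below 0.48 CPM in every library, with LRAT at 0 in 7 of the 9 libraries. VIM was at 2451 to 3128 CPM in batch 3 and at 539 to 793 CPM in the other 6 libraries. COL1A2 was at 270.5 to 323.5 CPM in batch 3 and at 33.2 to 41.1 CPM elsewhere, whereas COL3A1 was lower in batch 3. Of 8 stellate markers tested, edgeR called 3 higher and 3 lower in batch 3 (adjusted p below 0.05), beside 35.2% and 36% of all genes. The 11 markers of hepatocytes, cholangiocytes, endothelium and leukocytes summed to 0.825 to 2.35 CPM with HIV-1+LTA, 1.16 to 1.82 CPM with HIV-1 and 1.08 to 2.09 CPM with PBS. None of the 11 was at 0 in every library, but TTR and MARCO were at 0 in 8 of the 9. Of the 4 of these markers tested, edgeR called 2 lower and 0 higher in batch 3, beside 36% and 35.2% of all genes. PTPRC was at 0.021 to 0.121 CPM in batch 3 and at 0.517 to 0.876 CPM elsewhere. CDH5 was at 0 to 0.069 CPM in batch 3 and at 0.263 to 0.534 CPM elsewhere.

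Between genes, levels ran over a wide range, read here per length of all annotated exons of a gene joined together. The order of the genes depends on this length. Per kilobase of exon, NPM1 (nucleophosmin, the histone chaperone of the nucleolus) had a median of 176 CPM per kb over the 9 libraries, with a range of 131 to 222. NCL (nucleolin, which binds nascent precursor rRNA) followed with 132 CPM per kb, with a range of 108 to 184. The range of NCL overlapped that of NPM1, so the order of these 2 is not fixed by their spread. Below them came FBL at a median of 74.9 CPM per kb, with a range of 69.4 to 108, which stopped at the lowest value of NCL. At the other end stood NOC4L, RRP12 and DDX10 at medians of 2.88, 2.31 and 1.81 CPM per kb, with ranges that overlapped. The joined exons were 2020 bases for NOC4L, 8529 for RRP12 and 18059 for DDX10. Before division by length DDX10 was at 27.4 to 62.7 CPM, far above NOC4L at 2.82 to 7.35 CPM.

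The first comparison, of HIV-1+LTA with HIV-1, bears on LTA given on top of virus. The genes were lower with HIV-1+LTA as a group: 49 of the 50 had a log2 fold change below 0, with a median of -0.20 and a range of -0.37 for MRTO4 to 0.07 for NOC4L, beside a median of -0.004 and 51.1% below 0 over all 16117 genes. The fold changes come from an edgeR fit with batch and group, and since the genes were listed with this contrast known they are given as a description. In bulk RNA fewer cells that express a gene and less of its RNA per cell cannot be told apart. The lowering was found in batches 2 and 3 and not in batch 1. The median HIV-1+LTA minus HIV-1 difference was -0.01 in batch 1, -0.38 in batch 2 and -0.19 in batch 3 (log2 CPM, each between libraries of the same batch), and 31, 49 and 46 of the 50 genes were below 0. Over all tested genes 48.8%, 51.7% and 50.3% were below 0 in these batches.

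**Figure D1:**
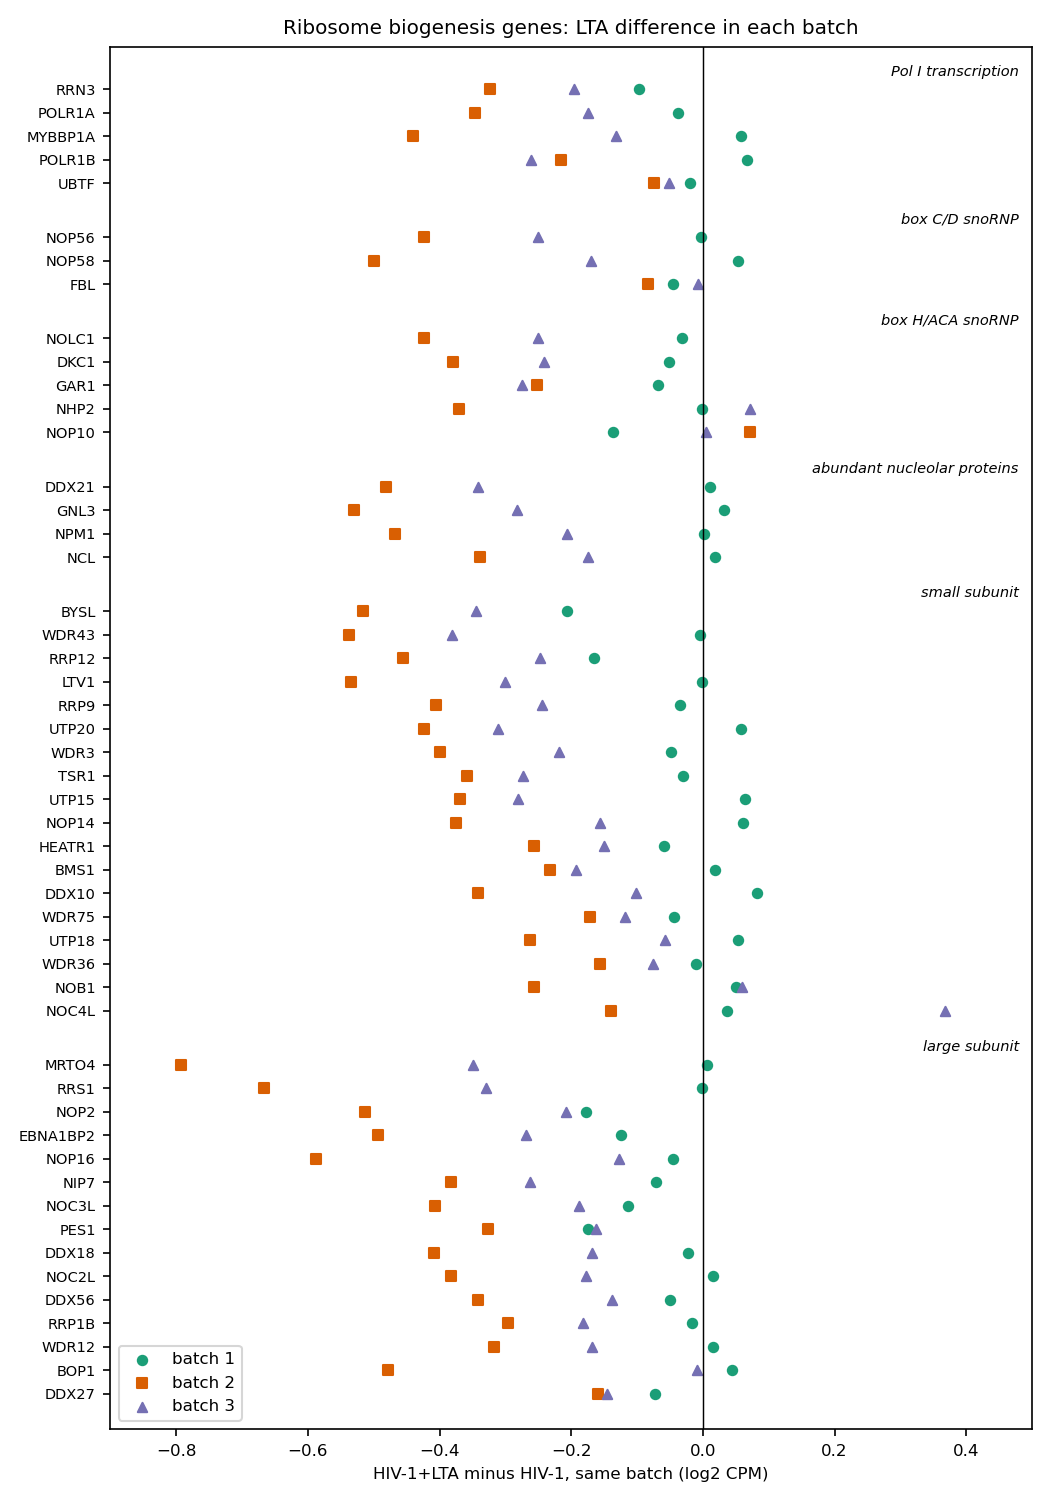
Difference in log2 CPM between the HIV-1+LTA and the HIV-1 library of the same batch (horizontal axis) for each of the 50 genes (rows, grouped by role); circles are batch 1, squares batch 2 and triangles batch 3. Batch 1 values lie around 0 with a median of -0.01, batch 2 values lie farthest left with a median of -0.38, and only NOC4L stands far to the right, at 0.37 in batch 3.

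Among the 3 libraries of a batch, the HIV-1+LTA library was the lowest for 20, 49 and 42 of the 50 genes in batches 1, 2 and 3, against 31.5%, 39.9% and 38.3% of all tested genes. In batch 2 the HIV-1 library was also the highest of the 3 for 44 of the 50 genes, against 32.9% of all tested genes. In batch 2, then, HIV-1+LTA lay below PBS and HIV-1 above it for most of the genes, and the difference between HIV-1+LTA and HIV-1 was lower than that of batch 3 for 47 of the 50. Across the 50 genes the differences of batches 2 and 3 correlated at r = 0.597 (rho 0.602). For batches 1 and 2 r was -0.03, and for batches 1 and 3 it was 0.164; no library is shared between these differences, but all genes of a difference share its libraries.

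At an adjusted p below 0.05 over all genes, edgeR called 0 of the 50 genes, as it called 0% of all 16117 genes, and limma-voom with the same design called 0 as well. At an unadjusted p below 0.05 edgeR had 38 of the 50 genes, all lower, against 7.32% of all genes lower and 8.11% higher. DESeq2 with batch and group, the kind of fit behind the study's own table, called 6 of the 50, all lower, against 0.538% of genes lower and 1.4% higher: MRTO4, BYSL, WDR43, EBNA1BP2, RRP12 and PES1. A count of 29 of the 50 genes was lower in all 3 batches and 0 were higher in all 3, against 17.1% and 16.7% of all genes. The CPM of the HIV-1+LTA libraries lay wholly below those of the HIV-1 libraries for 5 genes (NIP7, NOLC1, RRP9, RRN3 and DDX27), against 2.26% of all genes, and wholly above for 0, against 2.12%.

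The calls rested on which batch was in the fit. Without batch 1, edgeR called 32 of the 50 genes lower (4.5% of all genes were called lower) and DESeq2 called 31 (5.6%). With no filter on low counts edgeR called 23 (1.73%). Without batch 2 or without batch 3 both tools called 0. Leaving out HIV-1+LTA replicate 1 alone gave 37 genes in edgeR and 38 in DESeq2. The share called lower was then 7.56% of all genes in edgeR and 8.55% of genes with an adjusted p in DESeq2. By contrast, without HIV-1 replicate 2 or 3, or HIV-1+LTA replicate 2 or 3, DESeq2 called 0. PBS libraries enter this comparison only through the shared batch terms and spread, yet without PBS replicates 1, 2 and 3 DESeq2 called 4, 2 and 1 of the 50, with 0.628%, 0.212% and 0.194% of genes lower, and without HIV-1 replicate 1 it called 9, with 0.912%.

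The 6 genes of the DESeq2 call are of both subunits. MRTO4, a large subunit factor that holds the place of the stalk protein during assembly, was at 75.1, 49.5 and 84.7 CPM with HIV-1+LTA in batches 1, 2 and 3, against 74.8, 85.7 and 107.9 CPM with HIV-1 and 72.7, 75.5 and 107.6 CPM with PBS. The HIV-1+LTA library was clearly the lowest of its batch in batches 2 and 3 and level with the others in batch 1, and the groups overlapped because batch 3 was high in all of them. Relative to HIV-1 the log2 fold change was -0.37 (SE 0.113). EBNA1BP2, a large subunit factor of the early nucleolar particles, was at 77.9, 64.0 and 106.6 CPM with HIV-1+LTA, 84.9, 90.2 and 128.5 CPM with HIV-1 and 80.7, 86.5 and 129.8 CPM with PBS. In each batch the HIV-1+LTA library was the lowest of the 3, with a log2 fold change of -0.29 (SE 0.0696) against HIV-1. PES1, which forms the PeBoW complex with BOP1 and WDR12, was at 55.0, 52.7 and 75.1 CPM with HIV-1+LTA, 62.1, 66.1 and 84.0 CPM with HIV-1 and 59.7, 59.0 and 78.9 CPM with PBS. Here too HIV-1+LTA was lowest in every batch, and the difference from HIV-1 in batch 1, -0.18, was larger than in batch 3, -0.16.

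Among the small subunit genes, BYSL (bystin, needed for release of the late small subunit precursor) was at 23.6, 20.4 and 28.4 CPM with HIV-1+LTA, 27.3, 29.3 and 36.1 CPM with HIV-1 and 26.2, 26.2 and 34.2 CPM with PBS. It was the lowest with HIV-1+LTA in all batches, with differences from HIV-1 of -0.21, -0.52 and -0.34 and the smallest of its 3 differences larger than that of any other of the 50 genes. WDR43, of the t-UTP complex that couples transcription and processing, was at 62.5, 48.9 and 101.2 CPM with HIV-1+LTA, 62.7, 70.9 and 131.7 CPM with HIV-1 and 62.9, 61.7 and 133.7 CPM with PBS. The 3 libraries of batch 1 were level, and the gap opened in batches 2 and 3. RRP12, which acts in export of both subunits, was at 17.6, 16.1 and 30.3 CPM with HIV-1+LTA, 19.7, 22.1 and 35.99 CPM with HIV-1 and 17.2, 18.2 and 31.2 CPM with PBS. For RRP12 it was the HIV-1 library that stood out in each batch, above both of the others. The log2 fold changes against HIV-1 were -0.36 (SE 0.0661) for BYSL, -0.31 (SE 0.0854) for WDR43 and -0.29 (SE 0.0679) for RRP12. Other genes that were lower in all 3 batches by wide margins were NOP2, an rRNA methyltransferase of the large subunit (-0.18, -0.51 and -0.21), and NOC3L, also of the large subunit (-0.11, -0.41 and -0.19).

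**Figure D2:**
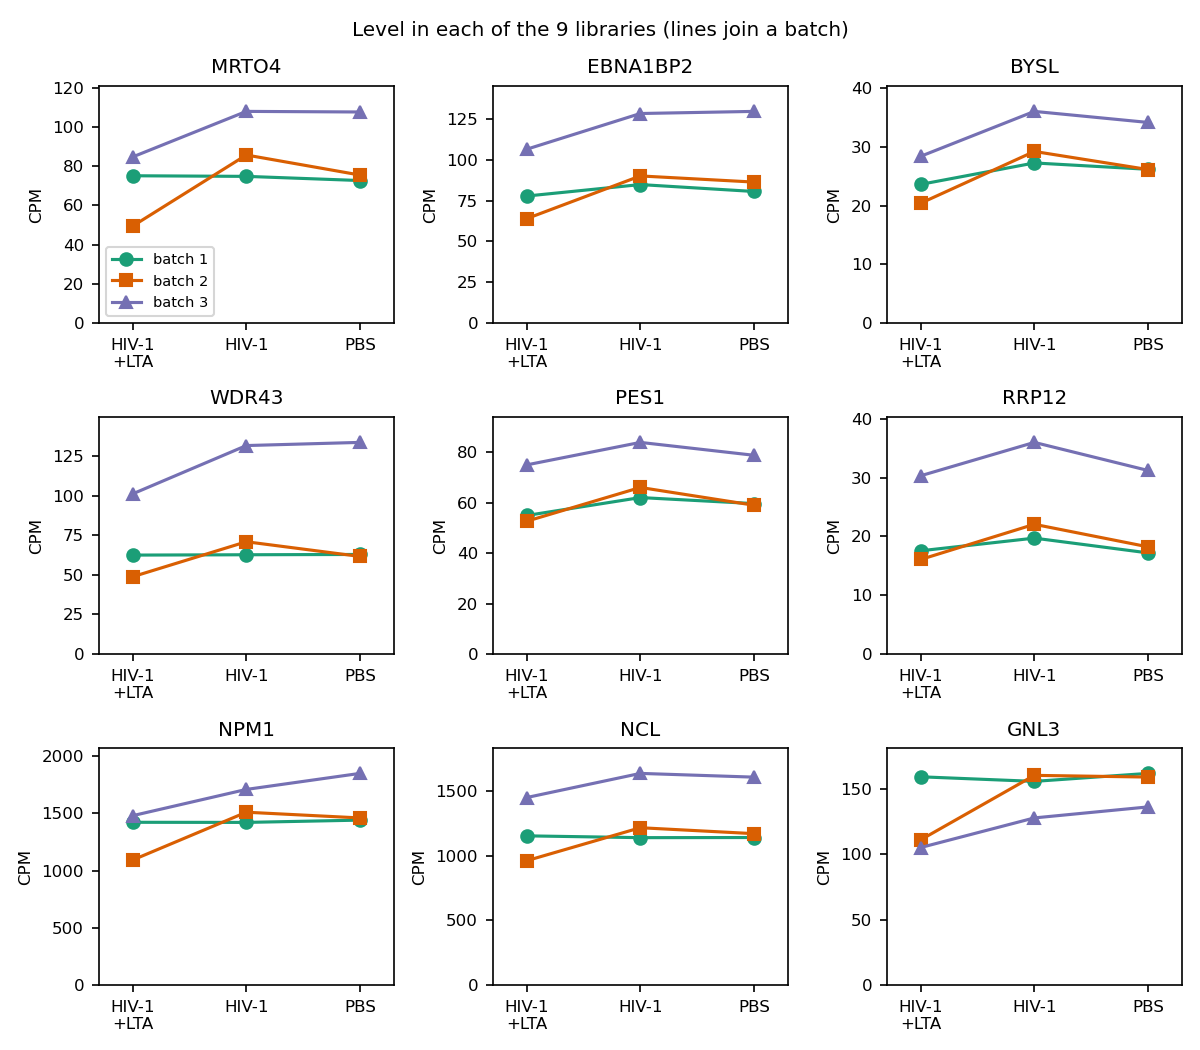
TMM-normalised CPM (vertical axis, from 0) of MRTO4, EBNA1BP2, BYSL, WDR43, PES1, RRP12, NPM1, NCL and GNL3 in each library. HIV-1+LTA is left, HIV-1 in the middle and PBS right, and each line joins the 3 libraries of 1 batch. The batch 2 and batch 3 lines are lowest at HIV-1+LTA, for example at 49.5 and 84.7 CPM for MRTO4. The batch 1 line is nearly flat for all but BYSL, EBNA1BP2, PES1 and RRP12.

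The promoters of the genes DESeq2 called are shown because a MYC site is known in many genes of this kind. RefSeq promoter windows (GRCh38.p14, from 250 bases before to 50 after a start) were found for 43 of the 50 genes, and CACGTG, the E-box bound by MYC and MAX, was searched in them. The motif reads the same on both strands, so each site counts once. It lay in the window of 18 of the 43 genes (41.9%), against 8.77% of 27305 genes with a window and 11.9% of the 12304 tested ones; in the last 100 bases around the start it was found in the same number, 18, against 3.51% and 4.98%. Shown here are the last 100 bases, from 50 before the start, of the 8 genes with a window among the 9 that DESeq2 called lower with HIV-1+LTA, relative to HIV-1 or to PBS. Where a gene had several windows, one with the motif in these bases was shown if there was any. In another window of EBNA1BP2 the motif lay at -237 from the start. CACGTG is in capitals, and NPM1 has none.
MRTO4 (chr1:19251755-19251854, plus strand): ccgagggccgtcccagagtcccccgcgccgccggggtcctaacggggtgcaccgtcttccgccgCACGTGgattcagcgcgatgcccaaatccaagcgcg
EBNA1BP2 (chr1:43172241-43172340, minus strand): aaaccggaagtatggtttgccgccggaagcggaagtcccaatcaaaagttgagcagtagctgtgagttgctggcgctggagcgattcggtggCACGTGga
BYSL (chr6:41921449-41921548, plus strand): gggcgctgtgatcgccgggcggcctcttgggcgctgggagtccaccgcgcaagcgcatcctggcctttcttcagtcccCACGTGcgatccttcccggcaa
WDR43 (chr2:28894617-28894716, plus strand): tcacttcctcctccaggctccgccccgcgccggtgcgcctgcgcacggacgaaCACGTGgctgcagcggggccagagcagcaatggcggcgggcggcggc
PES1 (chr22:30591861-30591960, minus strand): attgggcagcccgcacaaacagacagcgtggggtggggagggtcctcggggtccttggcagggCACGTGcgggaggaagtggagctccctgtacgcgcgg
GNL3 (chr3:52685982-52686081, plus strand): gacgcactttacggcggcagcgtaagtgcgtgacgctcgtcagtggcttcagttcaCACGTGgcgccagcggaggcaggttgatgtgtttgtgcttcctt
DDX21 (chr10:68956597-68956696, plus strand): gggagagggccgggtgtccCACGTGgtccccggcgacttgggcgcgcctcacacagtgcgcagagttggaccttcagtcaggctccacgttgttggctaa
NPM1 (chr5:171387799-171387898, plus strand): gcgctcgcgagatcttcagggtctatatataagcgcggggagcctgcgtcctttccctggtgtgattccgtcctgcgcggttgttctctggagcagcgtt

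In 6 of the 7 windows with the motif it starts after the base taken as the start, at 14 bases in MRTO4, 42 in EBNA1BP2, 28 in BYSL, 3 in WDR43, 13 in PES1 and 6 in GNL3, and in DDX21 at -31. The 18 genes with CACGTG had a median log2 fold change of -0.23 for HIV-1+LTA relative to HIV-1, with a range of -0.37 to -0.02, and the 25 genes with a window and no CACGTG had -0.16, with a range of -0.24 to 0.07. The ranges overlapped, and FBL and NOP10, both with the motif, were among the genes nearest to 0. Of the 3 other motifs searched on both strands, CGGAAG, the core bound by ETS factors, was in 58.1% of the 43 genes against 35.9% of tested genes, CACGCG in 32.6% against 21.2%, and CATGTG in 9.3% against 10.2%. A match describes the sequence only, and no binding was measured at these sites.

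By role, the medians of HIV-1+LTA relative to HIV-1 were close to each other. They were -0.17 for Pol I transcription, -0.20 for the box C/D and -0.20 for the box H/ACA snoRNP, -0.24 for the abundant nucleolar proteins, -0.18 for the small subunit and -0.22 for the large subunit. Every gene of 5 roles was below 0, and so were 17 of the 18 small subunit genes. The range within a role was wider than the gap between roles: it ran from -0.36 to 0.07 in the small subunit and from -0.37 to -0.13 in the large subunit, and from -0.20 to -0.05 in Pol I transcription.

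In Pol I transcription, POLR1A, the largest catalytic subunit, was at 107.7, 95 and 207.9 CPM with HIV-1+LTA, 110.5, 120.8 and 234.5 CPM with HIV-1 and 110.8, 111.9 and 227.0 CPM with PBS. It was the lowest with HIV-1+LTA in each batch by a small margin in batch 1, and batch 3 was far above the others in every group. RRN3, the initiation factor that links Pol I to growth signals, was at 52.4, 44.6 and 47.4 CPM with HIV-1+LTA, 56.0, 55.9 and 54.3 CPM with HIV-1 and 54.7, 52.8 and 62.6 CPM with PBS. Its HIV-1+LTA libraries lay below all libraries of both other groups; RRN3 has near-identical copies on chromosome 16, so its count is uncertain. UBTF, which keeps ribosomal DNA open, was at 110.3, 106.8 and 86.5 CPM with HIV-1+LTA, 111.7, 112.4 and 89.7 CPM with HIV-1 and 109.0, 111.6 and 91.3 CPM with PBS. The groups overlapped, and relative to HIV-1 the log2 fold change was -0.05 (SE 0.046), beside -0.19 (SE 0.0579) for POLR1A and -0.20 (SE 0.0694) for RRN3. POLR1B (-0.14) and MYBBP1A (-0.17), a nucleolar partner of Pol I, lay above 0 in batch 1.

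In the box C/D snoRNP the 3 core proteins differed. FBL (fibrillarin), the methyltransferase itself, was at 148.4, 152.4 and 212.8 CPM with HIV-1+LTA, 153.2, 161.6 and 213.9 CPM with HIV-1 and 151.5, 160.1 and 231.5 CPM with PBS. The 3 groups overlapped, with a log2 fold change of -0.05 (SE 0.0479) against HIV-1. NOP56, its scaffold partner, was at 183.2, 152.1 and 204.5 CPM with HIV-1+LTA, 183.6, 204.0 and 243.4 CPM with HIV-1 and 181.9, 184.8 and 237.5 CPM with PBS. HIV-1+LTA was the lowest in batches 2 and 3 only, with a log2 fold change of -0.22 (SE 0.0691) against HIV-1. NOP58, the other scaffold, was at -0.20 (SE 0.0856). The gene bodies of NOP56 and NOP58, and of GNL3, WDR43, NCL, DKC1 and TSR1 among the other genes, hold snoRNAs. How reads of such inserts were counted is not given in the sources used here, and their part in the host counts was not tested.

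Of the box H/ACA genes, DKC1 (dyskerin), the pseudouridine synthase, was at 121.1, 102.5 and 89.2 CPM with HIV-1+LTA, 125.5, 133.5 and 105.4 CPM with HIV-1 and 122.7, 129.7 and 109.9 CPM with PBS. It was the lowest with HIV-1+LTA in each batch, by the least in batch 1, with a log2 fold change of -0.22 (SE 0.0658) against HIV-1. GAR1 (-0.20) and NOLC1, the Nopp140 chaperone of these particles (-0.23), were near DKC1. NHP2 (-0.10, SE 0.0755) and NOP10 (-0.02, SE 0.0584), the other core proteins of the particle, were closer to 0; NHP2 has processed copies elsewhere in the genome, so its count is uncertain.

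The abundant nucleolar proteins had the lowest role median and no difference in batch 1, where all 4 were at 0 or just above. NPM1 was at 1421, 1092 and 1479 CPM with HIV-1+LTA, 1420, 1509 and 1708 CPM with HIV-1 and 1440, 1459 and 1848 CPM with PBS. The 3 libraries of batch 1 were nearly equal, and in batches 2 and 3 HIV-1+LTA was the lowest; NPM1 has many processed pseudogenes that can take its reads. NCL was at 1156, 964 and 1453 CPM with HIV-1+LTA, 1142, 1219 and 1640 CPM with HIV-1 and 1143, 1173 and 1611 CPM with PBS, the same pattern at a smaller size. GNL3 (nucleostemin, a nucleolar GTPase of dividing cells) was at 159.0, 110.9 and 105.0 CPM with HIV-1+LTA, 155.5, 160.1 and 127.6 CPM with HIV-1 and 161.6, 158.8 and 136.0 CPM with PBS. DDX21, an RNA helicase at ribosomal DNA, was at 255.8, 189.4 and 282.1 CPM with HIV-1+LTA, 253.9, 264.6 and 357.2 CPM with HIV-1 and 249.8, 262.7 and 377.6 CPM with PBS. For both, HIV-1+LTA was level with the other libraries in batch 1 and the lowest in batches 2 and 3. The log2 fold changes against HIV-1 were -0.22 (SE 0.0812) for NPM1, -0.16 (SE 0.0677) for NCL, -0.26 (SE 0.0877) for GNL3 and -0.27 (SE 0.0877) for DDX21.

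At both ends of the remaining genes, RRS1, a factor of early large subunit assembly, stood at -0.33 (SE 0.108) and NOP2 at -0.30 (SE 0.0792) for HIV-1+LTA relative to HIV-1. NOC4L, a small subunit factor that works with NOP14, was at 5.97, 6.38 and 3.69 CPM with HIV-1+LTA, 5.82, 7.04 and 2.86 CPM with HIV-1 and 5.36, 7.35 and 2.82 CPM with PBS. Batch 3 was low in every group, and the groups overlapped. It was the 1 gene above 0 (0.07, SE 0.127), with differences of 0.04, -0.14 and 0.37 in batches 1, 2 and 3. It is the gene with the fewest counts of the 50 and its SE is the widest. NOB1, the nuclease that makes the final cut of the small subunit rRNA, was at -0.05 (SE 0.0788).

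HIV-1 without LTA was then set against PBS, and the 50 genes were close to PBS. The median log2 fold change was 0.03, with 38 genes above 0 and 12 below, beside a median of -0.002 over all genes. The direction rested on single libraries: without HIV-1 replicate 2 the median was -0.025 with 36 genes below 0, and without PBS replicate 1 it was -0.004 with 28 below 0. By batch the median was 0.02, 0.06 and 0.01. edgeR called 0 of the 50 genes (0% of all genes), with 3 at an unadjusted p below 0.05, all higher (RRP12, NOC2L and BOP1), against 2.57% of all genes higher and 1.63% lower; limma-voom called 0, and DESeq2 called 0 of the 50, against 0.005% of genes higher and 0.01% lower. The number higher in all 3 batches was 16 of 50, against 16.3% of all genes, and 0 were lower in all 3, against 17.1%. The CPM of the groups did not overlap for DDX27 alone, which was higher, against 1.54% of all genes higher and 1.19% lower.

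BOP1, a scaffold of the PeBoW complex of the large subunit, had the highest value for HIV-1 against PBS. It was at 13.4, 12.8 and 18.7 CPM with HIV-1+LTA, 13.0, 17.8 and 18.8 CPM with HIV-1 and 11.7, 14.8 and 14.6 CPM with PBS. HIV-1 was above PBS in every batch, though HIV-1 in batch 1 lay under 2 of the PBS libraries, so the groups overlapped; the log2 fold change was 0.26 (SE 0.105). BOP1 was also the highest of the 50 for HIV-1+LTA against PBS. RRP12 (0.23, SE 0.0673), RRS1 (0.17, SE 0.107), RRP9 of the U3 particle (0.17, SE 0.0845) and NOC2L (0.17, SE 0.0665) followed. Of the 16 genes higher in all 3 batches, RRP12, BOP1, NOC2L and RRP9 had the widest margins, followed by NOP16 (0.25, 0.06 and 0.16) and DDX56 (0.11, 0.19 and 0.06). At the low end stood GNL3 (-0.04), UTP18 (-0.04), WDR12 (-0.04), WDR75 (-0.03) and RRN3 (-0.03), each within its SE. By role the median ran from -0.02 for the abundant nucleolar proteins to 0.08 for the large subunit, where 14 of 15 genes were above 0.

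HIV-1+LTA against PBS gives virus and LTA together; it shares its libraries with both comparisons above, so its values are set beside them and not counted as further support. The median of the 50 genes was -0.14, with 48 below 0, beside 0.002 over all genes. By batch the median was -0.003, -0.28 and -0.17, and 25 of the 50 genes were lower in all 3 batches, against 16.4% of all genes lower and 17.5% higher. edgeR and limma-voom called 0 of the 50 (0% of all genes in edgeR), with 27 at an unadjusted p below 0.05 in edgeR, all lower, against 8.13% of all genes lower and 8.67% higher. DESeq2 called 4, all lower, against 0.964% of genes lower and the same percentage higher: GNL3, DDX21, EBNA1BP2 and NPM1. Without batch 1 edgeR called 22 and DESeq2 24, with 5.75% of all genes and 8.45% of genes with an adjusted p called lower. Without batch 2 or 3 both called 0. With no filter on low counts edgeR called 17 (2.08%), and without HIV-1+LTA replicate 1 both tools called 31, with 8.63% of genes lower in edgeR and 11.6% in DESeq2. DESeq2 called 9 without PBS replicate 1 (3.09%) and 0 when any 1 of the other 7 libraries was left out.

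In the authors' deposited table, which names no comparison but matches HIV-1+LTA against PBS, the log2 fold change was -0.31 (SE 0.0883) for GNL3, -0.29 (SE 0.0866) for DDX21, -0.26 (SE 0.0769) for EBNA1BP2 and -0.26 (SE 0.0782) for NPM1. Of these 4, 3 are abundant nucleolar proteins, and NPM1 stands at the limit of the call. The lowest edgeR values against PBS were those of GNL3 (-0.30), MRTO4 (-0.29), DDX21 (-0.28), BYSL (-0.26) and EBNA1BP2 (-0.25), and the highest were BOP1 (0.11), NOC4L (0.09), NOC2L (-0.01), NHP2 (-0.03) and NOB1 (-0.03). The genes lower than PBS in all 3 batches by the widest margins were BYSL (-0.15, -0.36 and -0.27), NIP7 (-0.12, -0.27 and -0.25) and NOP2 (-0.20, -0.29 and -0.12), followed by WDR75, PES1 and BMS1 with a smallest difference of -0.07 each. The groups did not overlap for 4 of the 50 (RRN3, NIP7, NOLC1 and DDX27, all lower), against 1.76% of all genes lower and 2.06% higher.

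**Figure D3:**
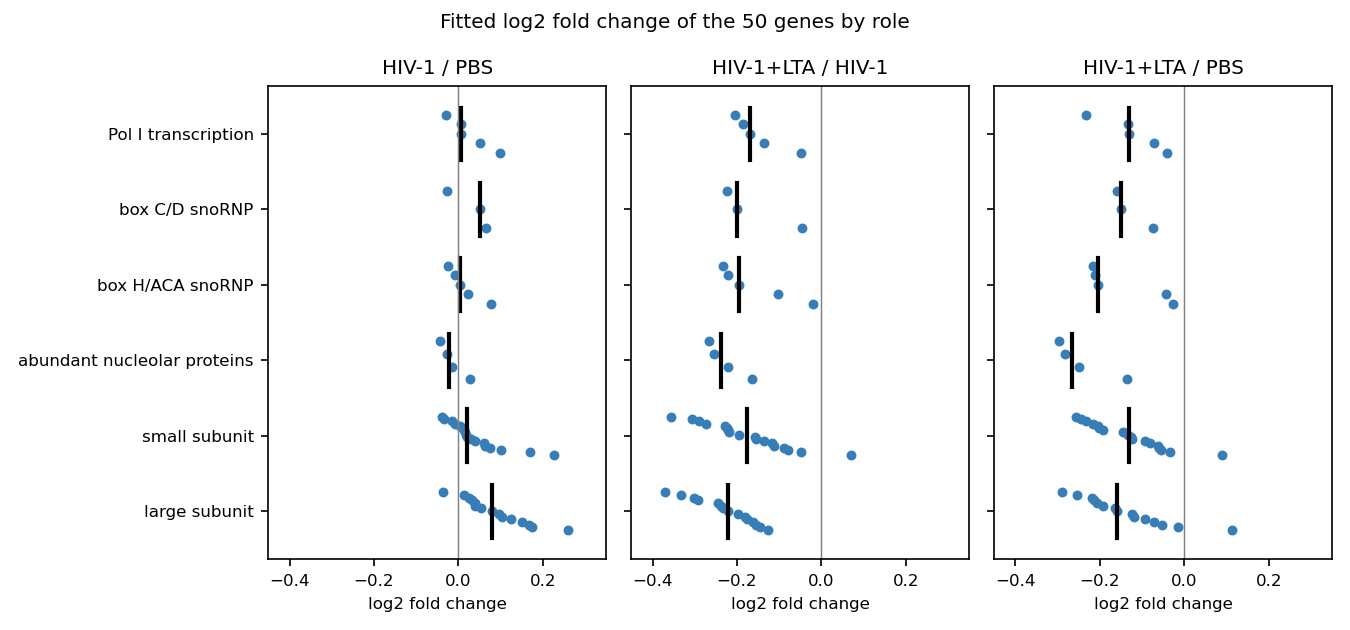
edgeR log2 fold change of the 50 genes (horizontal axis) by role (rows) in the 3 comparisons; points are genes and black bars are role medians. For HIV-1 against PBS the medians lie between -0.02 and 0.08, and for both comparisons of HIV-1+LTA every role median lies between -0.27 and -0.13.

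The batches differed by more than the treatments did, and the batch contrast is one that the choice of genes did not use. In batch 3 against the mean of batches 1 and 2, 42 of the 50 genes were called in edgeR at an adjusted p below 0.05, beside 71.2% of all genes; 32 were higher and 10 lower, beside 35.2% and 36% of all genes. The median of the 50 was 0.40, against -0.01 over all genes. DESeq2 called 31 higher and 10 lower, beside 28% and 28.9% of genes with an adjusted p. With library size alone as the scaling, the split was 27 higher and 16 lower, beside 4264 and 7367 of all 16117 genes. The median of all genes was then -0.17 against 0.24 for the 50. The TMM factors of batch 3 were 0.958, 0.930 and 0.899, against 1.01 to 1.08 in batches 1 and 2, and the part of this in the result was not tested.

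The highest of the 50 in batch 3 were NOC2L (1.17, SE 0.0557, edgeR adjusted p 4.28e-09), a large subunit factor that also binds histones, POLR1A (1.03, SE 0.0485, edgeR adjusted p 4.02e-09), WDR43 (0.98, SE 0.0714, edgeR adjusted p 1.38e-07) and DDX10, a small subunit helicase (0.95, SE 0.0612, edgeR adjusted p 4.87e-08). NOC2L was at 94.7, 107.2 and 96.9 CPM in batch 3 with HIV-1+LTA, HIV-1 and PBS, against 39.9 to 52.0 CPM in the other 6 libraries. The lowest were NOC4L (-1.02, SE 0.117, edgeR adjusted p 8.21e-06), RRP1B (-0.90, SE 0.0545, edgeR adjusted p 3.06e-08), DDX56 (-0.54, SE 0.055, edgeR adjusted p 2.58e-06) and NOP14 (-0.50, SE 0.0635, edgeR adjusted p 1.99e-05). RRP1B, a regulator of large subunit assembly, was at 66.7, 75.7 and 75.6 CPM in batch 3 with HIV-1+LTA, HIV-1 and PBS, against 114.7 to 142.4 CPM elsewhere. In each of these 8 genes batch 3 and the other batches did not overlap, which held for 27 higher and 5 lower genes of the 50, beside 30.6% and 30.2% of all genes.

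The partners NOC4L and NOP14, which act together in the small subunit, were both lower in batch 3, and so were UBTF (-0.31) and MYBBP1A (-0.21) of Pol I transcription, whereas POLR1A and POLR1B (0.57) were higher. All 3 box C/D proteins were higher, FBL by 0.51 (SE 0.0407, edgeR adjusted p 3.44e-07). Of the box H/ACA proteins GAR1 was higher (0.45) and DKC1 lower (-0.27), and NHP2, NOP10 and NOLC1 were not called. Of the 18 small subunit genes 12 were higher and 4 lower, beside 35.2% and 36% of all genes. Of the 15 large subunit genes 11 were higher and 2 lower. The size of the batch effect, up to 1.17, was well above the largest LTA value fitted over all 3 batches, -0.37 for MRTO4. Within batch 2 alone the difference of MRTO4 was -0.79.

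**Figure D4:**
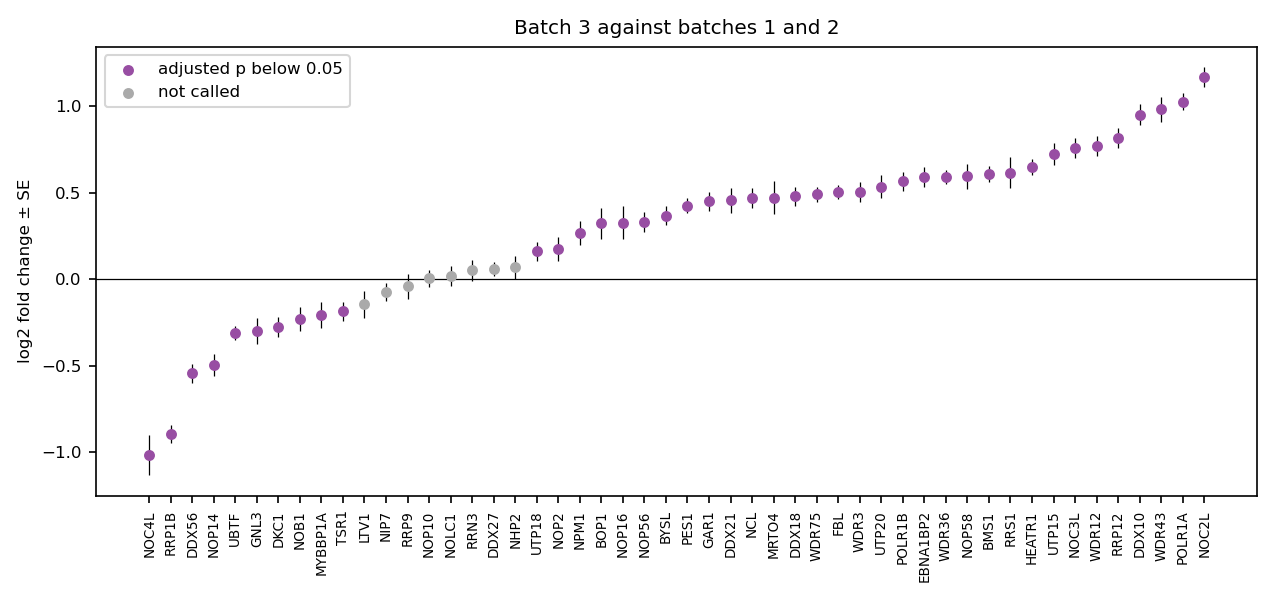
log2 fold change of batch 3 against the mean of batches 1 and 2 (vertical axis) for each of the 50 genes in rising order; bars are 1 SE, and purple points passed an edgeR adjusted p below 0.05. Values run from -1.02 for NOC4L to 1.17 for NOC2L, with 8 genes near 0 not called.

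MYC was measured at 31.3, 27.3 and 47.8 CPM with HIV-1+LTA in batches 1, 2 and 3, against 29.2, 37.4 and 62.3 CPM with HIV-1 and 29.2, 32.2 and 59.1 CPM with PBS. It was the highest of its batch with HIV-1+LTA in batch 1 and the lowest in batches 2 and 3, so its groups overlapped. HIV-1+LTA relative to HIV-1 gave a log2 fold change of -0.25 (SE 0.0907), while HIV-1 relative to PBS gave 0.10 (SE 0.0899). Neither was called by edgeR or DESeq2, whereas batch 3 was higher than batches 1 and 2 by 0.86 (SE 0.0761, edgeR adjusted p 8.31e-07). Of 11 tested genes of the MYC network, MXI1, a repressor that competes with MYC for MAX, was called higher in DESeq2 (0.35, SE 0.0853 in edgeR), 0 were called lower, and the median was -0.01.

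Other genes of the pathway, listed with earlier results known, had medians closer to 0 for HIV-1+LTA relative to HIV-1. Of 37 other small subunit factors 36 were below 0 (median -0.14), with PNO1 at -0.31 (SE 0.113) and DIMT1 at -0.29 (SE 0.0945). Of 39 other large subunit factors 34 were below 0 (median -0.14), with PPAN at -0.36 (SE 0.116), while NOP53 stood at 0.35 (SE 0.101). The RNA exosome, which trims precursor rRNA, had 13 of 14 genes below 0 (median -0.07). Among 19 other subunits of Pol I and its promoter factor SL1 the median was -0.09 with 15 below 0, and DESeq2 called POLR1G lower (-0.34, SE 0.0794 in edgeR). Besides POLR1G no gene of these 4 lists was called by DESeq2 in this comparison, and edgeR called 0.

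Long noncoding RNAs that carry snoRNAs in their introns stood below 0 in 10 of 11 tested cases, with a median of -0.16, SNHG12 at -0.40 (SE 0.142) and SNHG15 at -0.31 (SE 0.105). A list drawn up for the nucleolar stress arm of p53 had a median of 0.13 over 8 genes. It includes general p53 targets, and nucleolar stress itself was not measured. CDKN1A, such a target, had a log2 fold change of 0.49 (SE 0.153), with differences of -0.03, 0.97 and 0.47 in batches 1, 2 and 3, and was not called. Proliferation markers had a median of 0.03 with 10 of 11 above 0, MKI67 lay between 617 and 874 CPM in all libraries, and 0 of the 11 were called.

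Other measures of the same libraries were these. The 13 mitochondrially encoded genes were all above 0 for HIV-1+LTA relative to HIV-1 (median 0.18). By batch their medians were 0.084, 0.266 and 0.192, with all 13 above 0 in each. Unlike the ribosome biogenesis genes, they were thus shifted in batch 1 as well. They took 1.34%, 1.42% and 1.44% of counts with HIV-1+LTA, 1.26%, 1.11% and 1.18% with HIV-1 and 1.31%, 1.47% and 1.22% with PBS. Of the 10 stellate markers 8 were tested, 4 above and 4 below 0, from -0.52 for TAGLN to 0.61 for COL3A1. By batch the differences of TAGLN were -0.08, -0.94 and -0.64, and those of COL3A1 were 0, 0.90 and 0.90. DESeq2 called VIM lower among the 8 and 2 of the 13 mitochondrially encoded genes higher. The 10 markers summed to 3190 to 5440 CPM with HIV-1+LTA, 3500 to 6470 CPM with HIV-1 and 3050 to 6900 CPM with PBS. For HIV-1 relative to PBS the 13 mitochondrially encoded genes were all below 0 (median -0.21). Set against PBS, HIV-1+LTA gave a median of -0.009 for these genes, with 5 above 0 and 8 below. The part of these in the result was not tested.

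**Figure D5:**
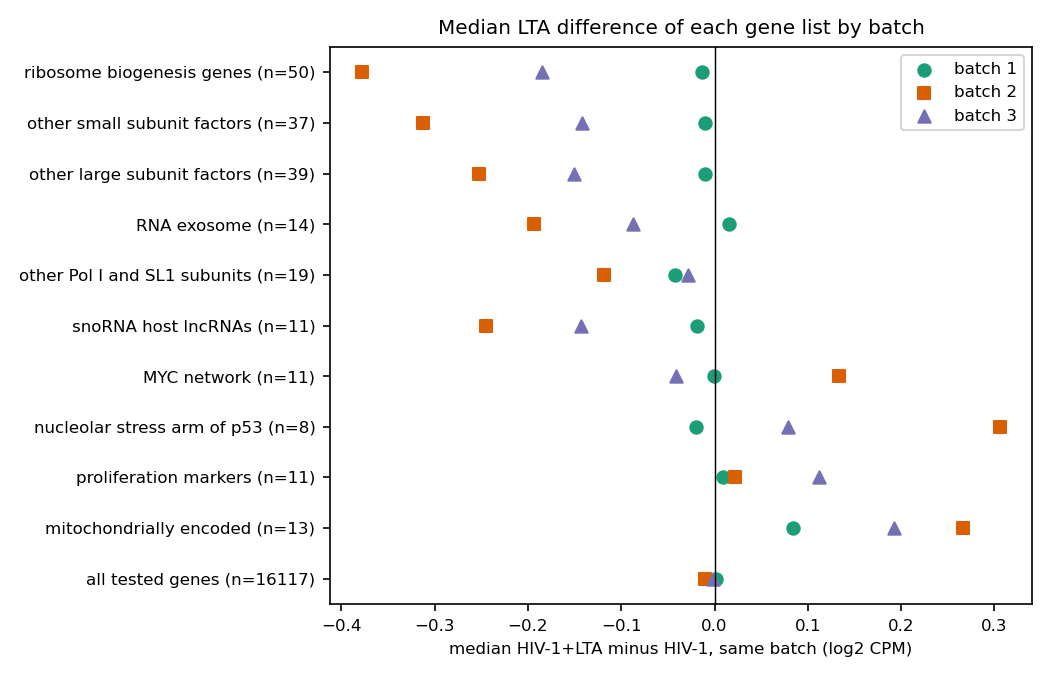
Median HIV-1+LTA minus HIV-1 difference in log2 CPM (horizontal axis) of the 50 genes, 9 other gene lists and all tested genes (rows; the cell type markers are not drawn) in batch 1 (circles), batch 2 (squares) and batch 3 (triangles). Of the rows drawn, the 50 ribosome biogenesis genes lie farthest left in batches 2 and 3, at -0.38 and -0.19, the lists of related factors lie between them and 0, and the mitochondrially encoded genes lie right of 0 in all 3 batches.

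The ChIP-seq list of HIV-1-treated cells held 166 peaks, and 2 of the 50 genes (4%) had a peak within 5000 bases of the gene body, against 0.631% of 32350 genes with a model and 1.4% of 10544 genes of at least 5 CPM. RRP9 (hg19 chr3:51967445-51975920, minus strand) had a peak at chr3:51976469-51976672, which is 549 bases upstream of its start and on an exon of PARP3. POLR1B (hg19 chr2:113299492-113337395, plus strand) had a peak at chr2:113341555-113341907, which is 4160 bases downstream of its end and on an exon of CHCHD5. RRP9 stood at 0.17 and POLR1B at 0.01 for HIV-1 against PBS, and neither was called. The antibody, the control and the peak threshold are not given in the sources used here, the ChIP cell line labels name Lx3 and Lx5 where the titles name Lx2, and with 1 peak list these values have no replicate check.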

How the data were processed

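RNA-seq counts of 9 libraries (HIV-1+LTA, HIV-1 and PBS, 3 each) and a ChIP-seq peak list were used. The submitters' processing notes name the build hg19 and the tools HTSeq, STAR, fastp and SAMtools for RNA and Bowtie2, bedtools and deepTools for ChIP; versions, strand setting and annotation release are not given in the sources used here. As deposited, the counts are raw and listed by gene symbol. In the authors' DESeq2 result each gene has a signal (its size-factor-scaled count averaged over libraries), a log2 fold change with SE, the Wald score and raw and adjusted forms of the p-value. The deposited table names no comparison; DESeq2 fitted here with terms for batch and group gave its 19990 log2 fold changes to within 0.00201 for HIV-1+LTA relative to PBS, and a correlation of 0.5 and 0.501 for the other comparisons. The deposited peak list holds positions only.

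The members and the gene lists were chosen with earlier results of these data known. Genes were kept by filterByExpr, which left 16117 of 25265 with any count, and tested with the edgeR 4.0.16 quasi-likelihood test in 1 fit of batch and group over all 9 libraries, with TMM scaling and Benjamini-Hochberg adjustment, a gene being called at an adjusted p below 0.05. Fold changes, their SE and the adjusted p for batch 3 are from this fit unless DESeq2 is named. DESeq2 1.42.0 used batch and group on genes whose counts summed to at least 10, and limma 3.58.1 (voom) the edgeR genes. Percentages for DESeq2 are of the genes that kept an adjusted p, 12239 to 19990 over the comparisons with all libraries, and fewer or more in other fits. CPM were TMM-normalised, log2 CPM used a prior count of 2, and differences by batch set libraries of 1 batch against each other. R was 4.3.3. The steps were tested on simulated counts.

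The labels give the replicate number as the batch, and on this ground numbers were taken to pair libraries across groups. Deviations from the group means of same-numbered libraries correlated at 0.817 to 0.983. The correlations of differently numbered libraries were not examined, so these values do not test the pairing. No pair of libraries was a copy (lowest chi-square per degree of freedom 3.8). By this measure HIV-1+LTA replicates 1 and 3 were nearest to the same-numbered HIV-1 library (3.8 and 38.9). HIV-1+LTA replicate 2 was nearer to HIV-1 replicate 1 (33.3) than to HIV-1 replicate 2 (52.3). Alternatives were other scalings and filters, no block, limma-voom, DESeq2, the 6 libraries compared alone, and each batch or library left out. Named are FBL, NOP56, NCL, NPM1, DKC1, POLR1A, RRN3, UBTF, BOP1 and MYC throughout, the 5 highest and 5 lowest genes of each treatment comparison, up to 6 with 1 sign in all batches and the widest smallest difference, all genes DESeq2 called, the 4 highest and 4 lowest in batch 3, and up to 2 genes per other list; any others were chosen after their values were seen. Gene coordinates are of GENCODE lifted to GRCh37, and promoter windows are of RefSeq GRCh38.p14.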

Additional observations from a re-analysis of the deposited data

Results flagged for a closer look

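HIV-1+LTA replicate 1 stood apart from HIV-1+LTA replicates 2 and 3 in its difference from HIV-1. A related size was read from a term for HIV-1+LTA in batch 1, added to the edgeR fit after the values by batch had been seen. This term sets HIV-1+LTA against HIV-1 and PBS together, and not against HIV-1 alone. The term fits HIV-1+LTA replicate 1 exactly, and its error comes from the spread of the other 8 libraries with 3 residual degrees of freedom. The genes were chosen on contrasts of the same libraries, so the term restates the observation and is no test of it. The term was above 0 for 49 of the 50 genes, with a median of 0.24. The genes with the term past the call threshold over all genes were 6 of the 50, against 1.76% of all 16117 genes, with no weight given to these calls. The log2 difference of HIV-1+LTA from the other groups in batch 1 was higher than in batches 2 and 3 by 0.55 (SE 0.12) for MRTO4 and by 0.45 (SE 0.0795) for DDX21. For LTV1, a late small subunit factor, it was higher by 0.44 (SE 0.0961), and for GNL3 by 0.43 (SE 0.0889). For WDR43 it was higher by 0.41 (SE 0.093) and for UTP20, a scaffold of the small subunit precursor, by 0.38 (SE 0.0838). With 1 library per group and batch, batch 1 and its HIV-1+LTA library cannot be told apart.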

How the results depend on the processing

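The replicate block was part of the fit; with no replicate block the medians of HIV-1+LTA relative to HIV-1, HIV-1 relative to PBS and HIV-1+LTA relative to PBS were -0.198, 0.024 and -0.14, and edgeR called 0 of the 50 genes in each, as with the block; DESeq2 and the batch contrast were not run without it. For HIV-1+LTA relative to HIV-1 edgeR called 0 genes, 23 with no filter on low counts, and 0 to 37 when a batch or library was left out (32 without replicate 1, 37 without HIV-1+LTA replicate 1). DESeq2 with the replicate block called 6, and 0 to 38 when a batch or library was left out (31 without replicate 1, 38 without HIV-1+LTA replicate 1, 9 without HIV-1 replicate 1, 4, 2 and 1 without PBS replicates 1, 2 and 3). For HIV-1+LTA relative to PBS the counts were 0 in edgeR, 17 with no filter, 0 to 31 with a batch or library left out (22 without replicate 1), and 4 in DESeq2 with the replicate block, then 0 to 31 (24 without replicate 1, 9 without PBS replicate 1). The DESeq2 fits with a batch or library left out were chosen after seeing the data. Calls over all genes, in either direction, rose in the same fits. For HIV-1+LTA relative to HIV-1 edgeR called 1016 of 25265 genes with no filter and 1567 of 16165 without replicate 1. Without HIV-1+LTA replicate 1 edgeR called 2390 of 16342, and DESeq2 called 2108 of 13250. For HIV-1+LTA relative to PBS the same fits called 1045 of 25265, 1733 of 16165, 2648 of 16342 and 2419 of 12867. The median of HIV-1 relative to PBS, 0.029, ran in edgeR from -0.025 without HIV-1 replicate 2 to 0.079 without HIV-1 replicate 1, and was -0.004 and 0.059 without PBS replicates 1 and 2; the lowest value in DESeq2 was -0.037, without HIV-1 replicate 2. The median of HIV-1+LTA relative to HIV-1 stayed between -0.278 and -0.102 in all alternatives, and that of HIV-1+LTA relative to PBS between -0.231 and -0.081. The number called in batch 3 was 37 to 43 in all alternatives, beside 10039 (of 12955) to 11773 (of 25265) over all genes. Of 1050 values of single genes under 7 settings 10 moved by more than their spread, all for HIV-1+LTA relative to PBS with library size alone, and 0 of the called ones reversed. Each group has 3 libraries, LTA without virus was not analysed here, and at 50.6 to 90.6 M counts per library depth limits only the lowest genes, such as NOC4L with 141 to 595 counts.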
